A study of Mus musculus with 12 samples.

Results

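The 10 SR splicing factor genes *Srsf1*, *Srsf2*, *Srsf3*, *Srsf4*, *Srsf5*, *Srsf6*, *Srsf7*, *Srsf9*, *Srsf10* and *Srsf11* were examined in the RNA and chromatin of mESCs, the embryonic stem cells of the mouse, and of NIH3T3 cells. They were chosen by symbol from 21905 protein-coding genes with a level and coordinates, and they account for 78 of the 137767 transcripts in the RNA-seq tables. mESCs of the E14TG2a line (E14) are pluripotent cells, and NIH3T3 is an established line of mouse embryonic fibroblasts. Both were grown in the same GMEM-based medium with serum and LIF and carried no drug treatment or knockdown in the libraries used here. The files hold 1 RNA-seq library of each cell type, and 7 lists of ChIP-seq peaks. In mESCs the lists were for Ctr9-GFP, H3K27ac, NELFA-GFP, RNA polymerase II phosphorylated at serine 5 (RNAPII Ser5p) and at serine 2 (RNAPII Ser2p). The NIH3T3 lists were those of Ctr9-GFP and H3K27ac. Ctr9 is a core subunit of the Paf1 complex, which travels with elongating polymerase. It was pulled down through a GFP tag knocked into its own gene, in pools of GFP-positive cells rather than in single clones. NELFA, a subunit of the complex that holds polymerase in the pause near the promoter, was pulled down through a GFP tag as well, and by the study's account RNAPII Ser5p was profiled in the same NELFA-tagged mESCs. H3K27ac marks active promoters and enhancers. The series has 12 samples, of which 9 were used and 3 were inputs. Each library was made once, so no value has a replicate, no test between cell types was made, and every difference is one between libraries.

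SR proteins carry RNA-recognition motifs and a tail rich in arginine and serine. They bind exons, help the spliceosome to recognise splice sites, and many also act in mRNA export and translation. Their tails are phosphorylated by Srpk and Clk kinases, which sets their import and their place in nuclear speckles. Most SR genes are known to limit their own protein by splicing their pre-mRNA into unproductive forms. Such forms include a cassette exon with a premature stop codon (a poison exon), which sends the mRNA to nonsense-mediated decay (NMD), or keep an intron.

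On mm10, *Srsf1* lies at chr11:88047373-88053755 and *Srsf2* at chr11:116849901-116853094, *Srsf3* at chr17:29032628-29043373 and *Srsf7* at chr17:80200080-80207307, and *Srsf4* at chr4:131873617-131901706 and *Srsf10* at chr4:135855747-135869908. The others are alone on their chromosomes, with *Srsf5* at chr12:80945504-80950507, *Srsf6* at chr2:162931528-162937121, *Srsf9* at chr5:115327177-115333080 and *Srsf11* at chr3:158010473-158036639. *Srsf2*, *Srsf7* and *Srsf11* are on the minus strand. The genes are 3194 bp (*Srsf2*) to 28090 bp (*Srsf4*) long, and *Srsf2* overlaps the coding genes *Mettl23* and *Mfsd11*.

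The labelled cell types could be read in the RNA-seq tables. The 5 mESC markers were all at least 2-fold higher in mESCs, with *Pou5f1* at 1402 TPM against 0, and the 5 fibroblast markers were all at least 2-fold higher in NIH3T3 cells, with *Col1a1* at 901 TPM against 0.203. TPM is a level per transcript length that sums to the same total in each library. The mESC library held 26400407 estimated counts in all and the NIH3T3 library 28849497, of which the SR genes took between 968 and 17997 each in mESCs and between 1918 and 17964 in NIH3T3 cells. How deeply the ChIP-seq libraries were sequenced cannot be read from the peak lists, so their depth is unknown.

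By the TPM of its highest transcript, no SR gene reached a 2-fold difference between the cell types, though *Srsf9* came close. As in the study's methods, the level of a gene was the TPM of its highest transcript. Every SR gene was in the top 25% of expressed protein-coding genes (those not at 0 TPM), which began at 21.6 TPM in mESCs and at 23.5 TPM in NIH3T3 cells. On the log2(TPM + 1) scale 0 of 10 differed 2-fold, whereas 43.8% of 12379 protein-coding genes with at least 1 TPM in either library did. Those 12379 genes were not matched to the SR genes in level. The median log2 ratio of mESCs over NIH3T3 cells was 0.13 for the SR genes and 0.13 for all 12379 genes. In bulk RNA, fewer cells expressing a gene and less RNA per cell cannot be told apart.

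**Figure D1:**
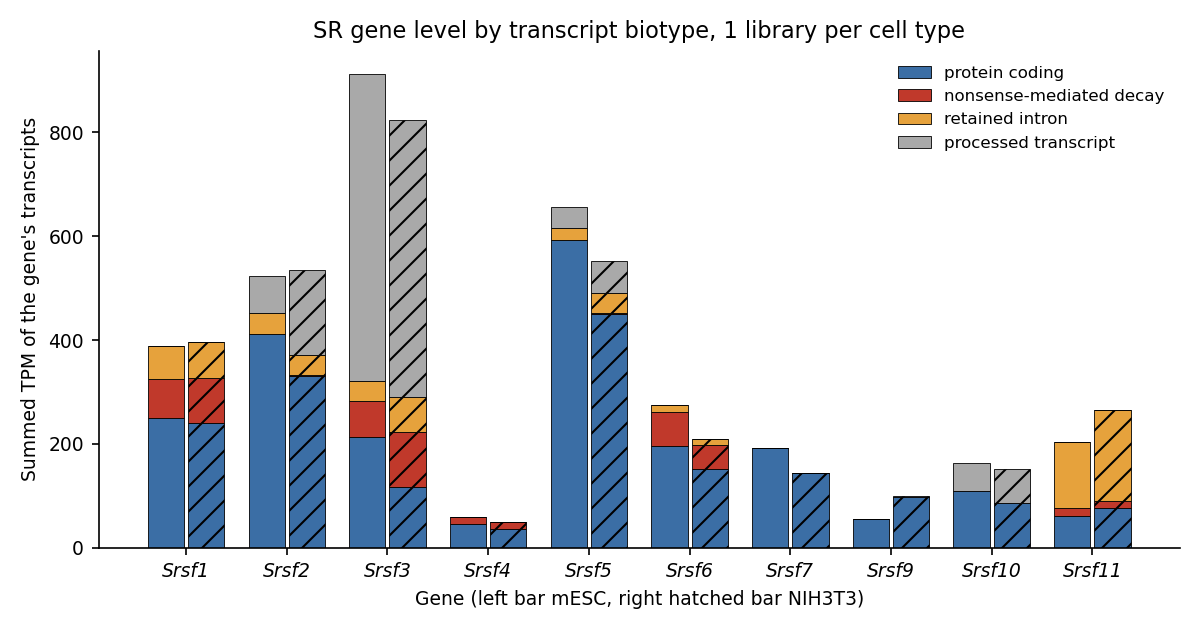
Summed TPM of all transcripts of each SR gene, split by annotated transcript biotype, in 1 library of mESCs (left, plain bars) and 1 of NIH3T3 cells (right, hatched bars). The total of *Srsf3* was the highest in both (911 and 823 TPM), and *Srsf9* had a taller bar in NIH3T3 cells (99.4 against 55.7 TPM).

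Among the SR genes, *Srsf2* was the highest by its leading transcript in both cell types. *Srsf2*, which encodes the speckle protein also called SC35 and promotes exon inclusion, was at 411 TPM in mESCs and 329.7 TPM in NIH3T3 cells. *Srsf5* was at 326 and 272 TPM, and *Srsf3*, which encodes the smallest SR protein, at 305 and 305 TPM. *Srsf6* reached 197 TPM in mESCs and 151 TPM in NIH3T3 cells. *Srsf7*, whose protein has a zinc knuckle and works as an adaptor for mRNA export, was at 192 and 144 TPM. *Srsf1*, the founding member of the family and a regulator of splice-site choice, was at 148 and 156 TPM. The order of these 6 genes in mESCs was therefore *Srsf2*, *Srsf5*, *Srsf3*, *Srsf6*, *Srsf7* and *Srsf1*, whereas in NIH3T3 cells *Srsf3* stood above *Srsf5*, and *Srsf1* above *Srsf6* and *Srsf7*. Without replicates it is not known which neighbours in these orders differ beyond the spread of repeated libraries.

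The 4 other genes were at lower levels. *Srsf10*, whose protein can act as a splicing repressor when it is dephosphorylated, was at 65.5 TPM in mESCs and 65.9 TPM in NIH3T3 cells. *Srsf11*, a more distant member of the family, was at 54.4 and 66.6 TPM, and *Srsf4*, which encodes the SR protein with the longest arginine-serine tail, at 45.1 and 36.8 TPM. *Srsf9* was the lowest in mESCs, at 33.1 TPM, and stood at 65.1 TPM in NIH3T3 cells.

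*Srsf9* was the SR gene with the widest gap between the cell types. Its log2 ratio was -0.96, and on summed estimated counts (968 in mESCs and 1918 in NIH3T3 cells), each divided by its library total, it was -0.86 with a 95% exact interval of -0.97 to -0.75 that covers counting error only. After division of TPM by the median ratio it was -1.04, past 2-fold. It was the only member past 1.5-fold by the highest transcript, a difference that 62.3% of the 12379 genes reached. The other 9 genes lay between -0.29 (*Srsf11*) and 0.41 (*Srsf7*). *Srsf7* and *Srsf6* were the members most in favour of mESCs, at 0.41 and 0.38.

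*Srsf3* shows how far the chosen transcript sets a gene's level. Its highest transcript in both cell types was Srsf3-208, a processed transcript of 319 bases without an annotated coding sequence, at 305.06 TPM in mESCs and 305.15 TPM in NIH3T3 cells. Only 725 and 789 estimated counts stood behind those levels, because a short effective length turns few reads into many TPM. Its only coding transcript, Srsf3-202 of 2618 bases, was at 214 TPM in mESCs and 118 TPM in NIH3T3 cells, from 10005 and 5998 estimated counts. The log2 ratio of *Srsf3* was 0.00 by the highest transcript, 0.15 by the sum over transcripts and 0.86 by coding transcripts alone. When only coding transcripts were summed, which was decided with the values in view, the median log2 ratio of the 10 genes was 0.33, against 0.14 over all genes, and 8 of 10 lay above 0.

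**Figure D2:**
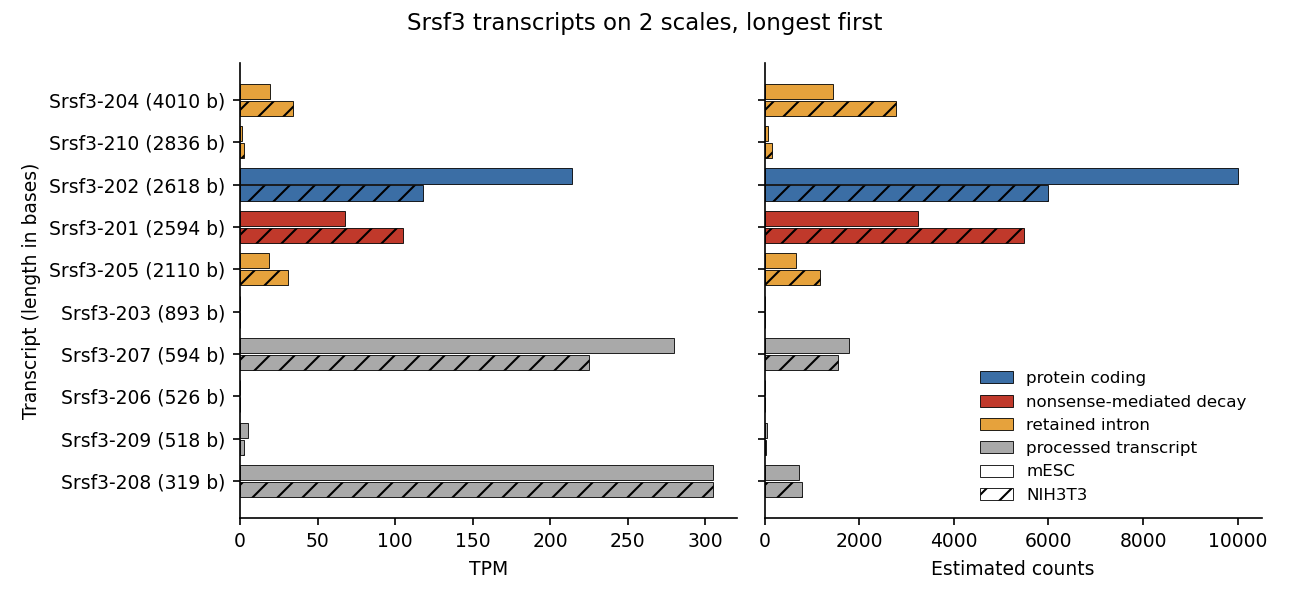
The 10 *Srsf3* transcripts, longest at the top, in TPM (left) and in estimated counts (right), with plain bars for mESCs and hatched bars for NIH3T3 cells and colour for the biotype. The 319-base Srsf3-208 leads in TPM but not in counts, and the coding Srsf3-202 and the NMD transcript Srsf3-201 differ between the cell types in opposite directions.

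The 78 transcripts were annotated as 26 coding, 14 NMD, 23 retained-intron and 15 processed transcripts, and 7 of them were at 0 in both libraries. Of the 46 transcripts with at least 5 TPM or 10% of their gene's summed TPM, 19 were coding, 6 NMD, 12 retained-intron and 9 processed. The same transcript led in both cell types in all 9 genes with more than 1 transcript, so none switched its leading transcript, against 17.1% of 7391 genes. Summed over the 10 genes, coding transcripts were at 2128 TPM in mESCs and 1731 TPM in NIH3T3 cells, NMD transcripts at 235 and 268 TPM, and retained-intron transcripts at 309 and 404 TPM. Retained-intron transcripts thus stood higher in NIH3T3 cells in sum, and 10 of the 12 past the limits above did so one by one. Several of these 10 are isoforms of *Srsf11* and so do not stand for separate genes. *Srsf11* alone was at 127 and 175 TPM in retained-intron transcripts, and at 203 and 265 TPM over all its transcripts. Gaps as small as that of Srsf11-213, at 23.32 and 23.35 TPM, were counted. Over the genes of the background, 56.7% of 2092 retained-intron transcripts with at least 5 TPM were higher in NIH3T3 cells.

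The share of a gene's TPM in NMD and retained-intron transcripts varied more between SR genes than between cell types. Among the 8 SR genes with a quantified NMD or retained-intron transcript, none differed by 10 percentage points between the cell types. Of 5563 genes with such a transcript and at least 5 TPM in both libraries, 19.9% did. Those genes were not matched to the SR genes in level. By 5 points, 1 of the 8 SR genes differed (*Srsf3*), against 38.2% of the 5563 genes. *Srsf3* also passed 10 points in some other settings, given below. The share was lower in mESCs in 6 genes, higher in 2 and 0 in both cell types in the remaining 2, and over the 5563 genes it was lower in mESCs in 61.2% and higher in 35.1%. Its median over the 10 genes was 9.79% in mESCs and 14.2% in NIH3T3 cells, and over the 5563 genes 8.06% and 10.7%. *Srsf7* has 1 transcript in the table and *Srsf10* has none of either biotype, so their shares are 0 by construction. GENCODE M21 lists NMD and retained-intron transcripts of *Srsf7* that were not quantified here, so its share of 0 says nothing about those forms. Over the 8 genes with such a transcript, the medians were 18.4% and 23.8%.

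**Figure D3:**
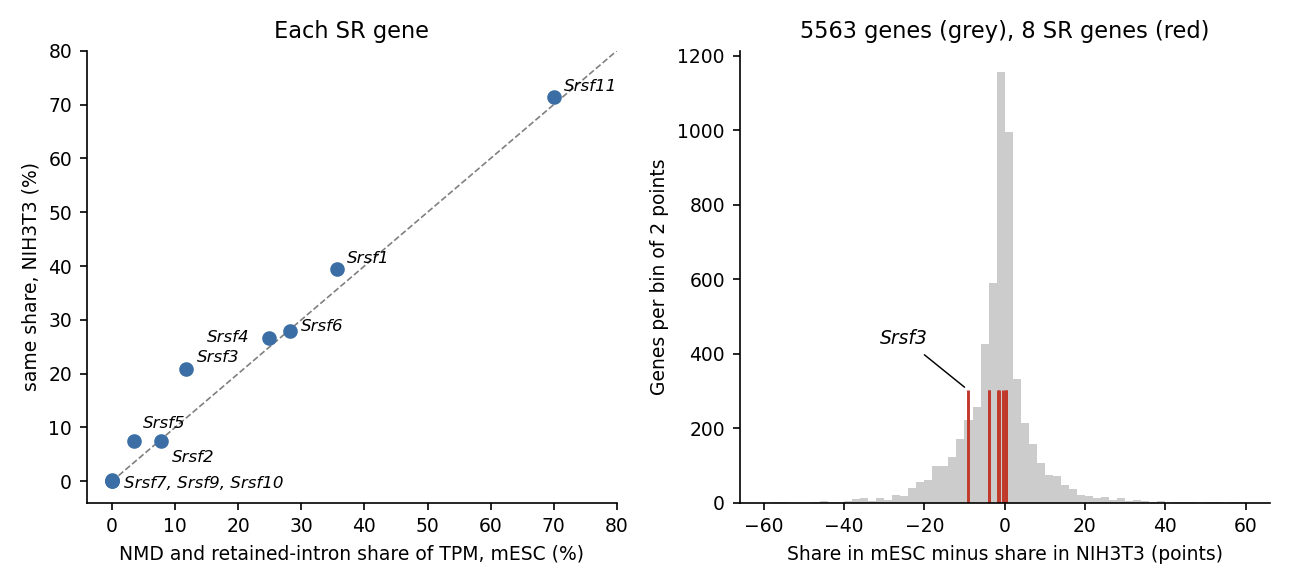
Left, the share of summed TPM in NMD and retained-intron transcripts of each SR gene in mESCs (x axis) and NIH3T3 cells (y axis), with a dashed line of equal shares. Right, the difference in that share, mESCs minus NIH3T3 cells, over 5563 genes (grey bars) and for the 8 SR genes with such a transcript (red lines). *Srsf11* is highest at 70.0% and 71.3%, and *Srsf3* lies furthest from equality, at -9.18 points.

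*Srsf11* carried the largest share in such transcripts, 70.0% in mESCs and 71.3% in NIH3T3 cells. It has 11 retained-intron and 3 NMD transcripts, and retained-intron forms alone took 62.6% and 66.2% of its TPM. Srsf11-208, a retained-intron transcript, was at 22.4 TPM in mESCs and 40.6 TPM in NIH3T3 cells, and Srsf11-213 at 23.3 and 23.3 TPM. The short retained-intron transcript Srsf11-211 of 521 bases was at 37.0 and 43.8 TPM. The NMD transcripts went in opposite directions, with Srsf11-206 at 4.77 and 9.53 TPM and Srsf11-210 at 7.29 and 1.08 TPM, the latter from 33.6 and 5.29 estimated counts.

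On TPM, *Srsf1* followed at 35.6% in mESCs and 39.5% in NIH3T3 cells. On estimated counts its share was 9.36% and 12.4%, below those of *Srsf11*, *Srsf3*, *Srsf6* and *Srsf4* in both cell types and also below *Srsf5* in NIH3T3 cells. Its NMD transcript Srsf1-204 was at 73.9 TPM in mESCs and 87.2 TPM in NIH3T3 cells, and its retained-intron transcript Srsf1-203 at 62.8 and 64.6 TPM. Among its coding transcripts, Srsf1-205 of 5362 bases was at 67.4 TPM in mESCs and 34.8 TPM in NIH3T3 cells, while Srsf1-202 was at 34.8 and 49.5 TPM. The longest coding form thus stood higher in mESCs and the shortest higher in NIH3T3 cells.

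*Srsf6* and *Srsf4* had similar shares in both cell types. For *Srsf6* the share was 28.3% in mESCs and 27.8% in NIH3T3 cells, with the poison-exon transcript Srsf6-201 at 64.4 and 47.2 TPM and the coding Srsf6-203 at 197 and 151 TPM. For *Srsf4* it was 24.9% and 26.6%, with the NMD transcript Srsf4-204 at 9.92 and 7.52 TPM. The NMD form and the coding form of *Srsf6* were both higher in mESCs, and the share differed by 0.43 points.

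In *Srsf3* the coding and NMD forms differed in opposite directions. The NMD transcript Srsf3-201, which holds the poison exon, was at 67.8 TPM in mESCs and 105 TPM in NIH3T3 cells. The retained-intron transcripts Srsf3-204 and Srsf3-205 were at 19.2 and 18.8 TPM in mESCs and at 33.9 and 30.6 TPM in NIH3T3 cells. The share of NMD and retained-intron TPM was 11.8% in mESCs and 21% in NIH3T3 cells, a difference of -9.18 points, and 840 of the 5563 genes, or 15.1%, had one as low or lower. On estimated counts, where the short processed transcripts weigh little, the share was 30.3% in mESCs and 53.4% in NIH3T3 cells, with 95% exact intervals of 29.6% to 31.0% and 52.7% to 54.1% for counting error only. That makes 1 of the 8 SR genes with such transcripts that differed by 10 points on counts, against 11.6% of the 5563 genes. On TPM with only coding, NMD and retained-intron transcripts as the whole, the difference was -26.0 points. Without transcripts under 600 bases it was -26.0 points too. In these 2 settings 21.6% and 17.2% of background genes differed by 10 points. Of the counts in the NMD and coding transcripts together, NMD held 24.5% in mESCs and 47.7% in NIH3T3 cells. kallisto divides reads between transcripts that share most of their exons, and the error of that division is not in these intervals.

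The remaining genes had small shares. *Srsf2* was at 7.80% in mESCs and 7.5% in NIH3T3 cells, nearly all from the retained-intron transcript Srsf2-203 at 40.5 and 39.3 TPM. Its processed transcript Srsf2-205 of 433 bases was at 71.2 TPM in mESCs and 164 TPM in NIH3T3 cells, from 366 and 903 estimated counts. *Srsf5* was at 3.53% and 7.49%, with the retained-intron transcript Srsf5-212 at 19.1 and 32.1 TPM, and its coding transcripts Srsf5-203 and Srsf5-205 were at 115 and 24.4 TPM in mESCs against 64.5 and 8.81 TPM in NIH3T3 cells. *Srsf9* had 0% and 0.303%. In *Srsf10*, the coding Srsf10-205 was at 30.8 TPM in mESCs and 12.1 TPM in NIH3T3 cells, while the leading Srsf10-204 was at 65.5 and 65.9 TPM.

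The poison exons of *Srsf3*, *Srsf6* and *Srsf4* are shown because each NMD transcript below ends its reading frame inside an exon that the leading coding transcript of its gene lacks. Each sequence is on the plus strand of GRCm38 (mm10) with positions from GENCODE M21, begins with the 25 intronic bases before the exon, and ends at the premature stop codon, which is in capitals. In each, the intron ends in AG, the reading frame before the stop is open, and the exon is missing from the main coding transcript (Srsf3-202, Srsf6-203 and Srsf4-202). The short Srsf6-202, annotated as coding and at 0.264 TPM in mESCs and 0.58 TPM in NIH3T3 cells, also holds bases of the *Srsf6* exon and its stop. The exon of *Srsf3* (exon 4 of 7 in Srsf3-201) spans chr17:29039454-29039909 and has its stop 31 bases in, the exon of *Srsf6* (exon 3 of 7 in Srsf6-201) spans chr2:162932815-162933082 with the stop 149 bases in, and the exon of *Srsf4* (exon 2 of 6 in Srsf4-203) spans chr4:131884276-131884482 with the stop 112 bases in. Srsf4-203 was at 3.82 TPM in mESCs and 4.62 TPM in NIH3T3 cells, below the limit for naming, and was taken because Srsf4-204 uses the same stop and begins inside the exon.
Srsf3-201, chr17:29039429-29039487: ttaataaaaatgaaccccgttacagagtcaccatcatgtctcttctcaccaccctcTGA
Srsf6-201, chr2:162932790-162932966: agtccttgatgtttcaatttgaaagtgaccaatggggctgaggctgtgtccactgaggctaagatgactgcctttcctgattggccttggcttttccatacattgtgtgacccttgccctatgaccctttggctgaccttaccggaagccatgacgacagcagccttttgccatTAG
Srsf4-203, chr4:131884251-131884390: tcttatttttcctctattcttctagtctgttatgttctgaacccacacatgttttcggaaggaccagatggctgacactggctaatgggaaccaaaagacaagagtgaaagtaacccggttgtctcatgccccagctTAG

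Few genes of the wider splicing machinery differed 2-fold by the same measure, against 43.8% of the 12379 genes, which were not matched to these lists in level. Of 14 SR-related genes that reached 1 TPM, 1 was 2-fold higher in mESCs, *Srrm1*, a speckle protein that works with SR proteins on exon enhancers, at 84.8 TPM against 40.1 TPM, and none was 2-fold lower. Of 20 hnRNP genes, whose proteins often oppose SR proteins, none was 2-fold higher in mESCs and 1 was 2-fold lower, *Ptbp2*, at 11.2 TPM against 27.7 TPM. None of the 7 SR kinase and import genes differed 2-fold in either direction, with a median log2 ratio of -0.52. None of the 10 NMD factors did either on the log2(TPM + 1) scale, with a median of 0.25. *Upf1* came close, with a log2 ratio of 0.98, at 41.1 TPM in mESCs and 20.3 TPM in NIH3T3 cells.

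Of 12 cell-type-specific splicing regulators, 5 were 2-fold higher in mESCs and 4 were 2-fold lower. Over the 12379 genes, 43.8% differed 2-fold in either direction. *Khdrbs3* was at 42.1 TPM in mESCs and listed at 0 in NIH3T3 cells, and was the gene of the list with the widest gap. *Mbnl1*, which drives splicing patterns of differentiated cells, was at 1.31 TPM in mESCs and 40.6 TPM in NIH3T3 cells, and *Celf2* at 0.859 and 14.8 TPM.

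Ctr9 peaks were called in every SR gene region in both cell types. A gene region was the gene body with 1 kb upstream and 5 kb downstream, and a peak counted when it overlapped the region by at least 1 bp. All 10 regions had a Ctr9 peak in mESCs, against 44.1% of all 21905 genes and 91.9% of genes in the top 25% of TPM. In NIH3T3 cells all 10 had one too, against 25.8% and 65.8%. Within the gene body alone the count stayed at 10 in mESCs and was 8 in NIH3T3 cells, where the only peak of *Srsf4* ended before the gene start and the only peak of *Srsf9* lay past the gene end, within *Gatc*. The strongest fold enrichment in each region, a ratio of the pileup at a peak's summit to the local background, had a median of 11.9 in mESCs (lowest 4.42, highest 18.7) and of 9.73 in NIH3T3 cells (lowest 4.13, highest 20.2). The medians over genes of the top 25% with a peak were 6.68 and 5.65. Here and for the other lists, the top 25% was not matched to the SR genes in level.

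**Figure D4:**
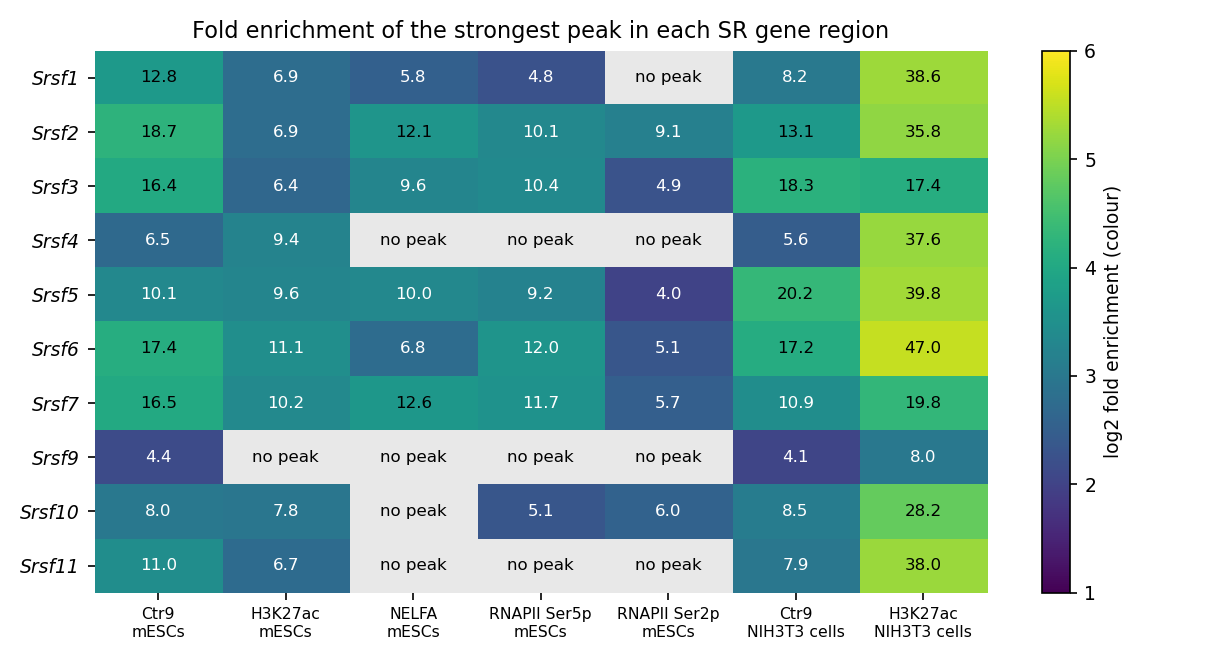
Fold enrichment of the strongest peak in each SR gene region (rows) in the 7 lists (columns), as numbers and, on a log2 scale, as colour, with grey where no peak was called. Values in different columns come from different libraries, and in some cases also from different antibodies. *Srsf9* is without a peak in 4 of the 5 mESC lists and has the lowest value in both Ctr9 lists.

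Ctr9 peaks ran along most of the length of the shorter SR genes. In mESCs, peaks covered 95.2% of the *Srsf3* region, 88.9% of *Srsf7*, 88.8% of *Srsf6*, 83.8% of *Srsf1*, 81.7% of *Srsf5*, 78.5% of *Srsf2* and 53.8% of *Srsf10*. In NIH3T3 cells the same 7 genes were covered at 93.0% (*Srsf3*), 65.3% (*Srsf7*), 91.7% (*Srsf6*), 76.0% (*Srsf1*), 91.9% (*Srsf5*), 76.6% (*Srsf2*) and 84.7% (*Srsf10*). The largest single peak among them was 15846 bp wide, over *Srsf3* in mESCs. The long genes *Srsf4* and *Srsf11* were covered at 15.2% and 16.9% in mESCs and at 2.04% and 34.7% in NIH3T3 cells, and *Srsf9*, which is short, at 21.5% and 4.18%.

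At least 50% of the region was covered in 7 of 10 SR genes in each cell type, against 13.8% of genes in the top 25% of TPM in mESCs and 7.95% in NIH3T3 cells. This limit was chosen after the values were seen. Region length and level both moved with coverage. Among genes of the top 25% whose region was at most 25 kb long, 23% were covered to that extent in mESCs and 12.9% in NIH3T3 cells, and 7 of 8 SR genes of that length were in each. Among genes of that length in the top 5% of TPM, the shares were 46.4% and 31.1%, and all 6 SR genes in that class were covered in each cell type. The part of length and level in the remaining difference was not tested further.

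In most SR genes the strongest Ctr9 summit of mESCs lay past the annotated gene end rather than near the start. In mESCs it was within 1 kb of the transcription start site (TSS) in 0 of 10 SR genes, against 4.93% of genes in the top 25% of TPM with a peak, and past the annotated gene end in 9 of 10, against 76.2%. *Srsf10* was the exception, with its summit 555 bp before the gene end. The summits of *Srsf7*, *Srsf2*, *Srsf4*, *Srsf1* and *Srsf11* lay 675, 1013, 1052, 1255 and 1259 bp past the end, and those of *Srsf3*, *Srsf6*, *Srsf9* and *Srsf5* 2923, 3604, 4101 and 5709 bp past it. The summit of *Srsf5* is thus outside the gene region. When only peaks with a summit inside the region were taken, 8 genes had the strongest one past the end. The summit of *Srsf9* lay within *Gatc*, that of *Srsf5* within *Slc10a1* and that of *Srsf2* within *Mettl23*, so those peaks cannot be assigned to one gene. Counting the position past the gene end was decided after the values were seen, and 9 of 10 is not far from the share in the background.

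In NIH3T3 cells the strongest Ctr9 summit was past the gene end in 5 of 10 SR genes, against 48.2%, and within 1 kb of the TSS in 2 of 10, against 21.8%. Those 2 were *Srsf5*, 850 bp after the TSS, and *Srsf4*, 759 bp before it. For *Srsf3* the summit was 491 bp past the gene end, closer to it than in mESCs. For *Srsf6* and *Srsf7* it was 221 and 605 bp before the end.

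**Figure D5:**
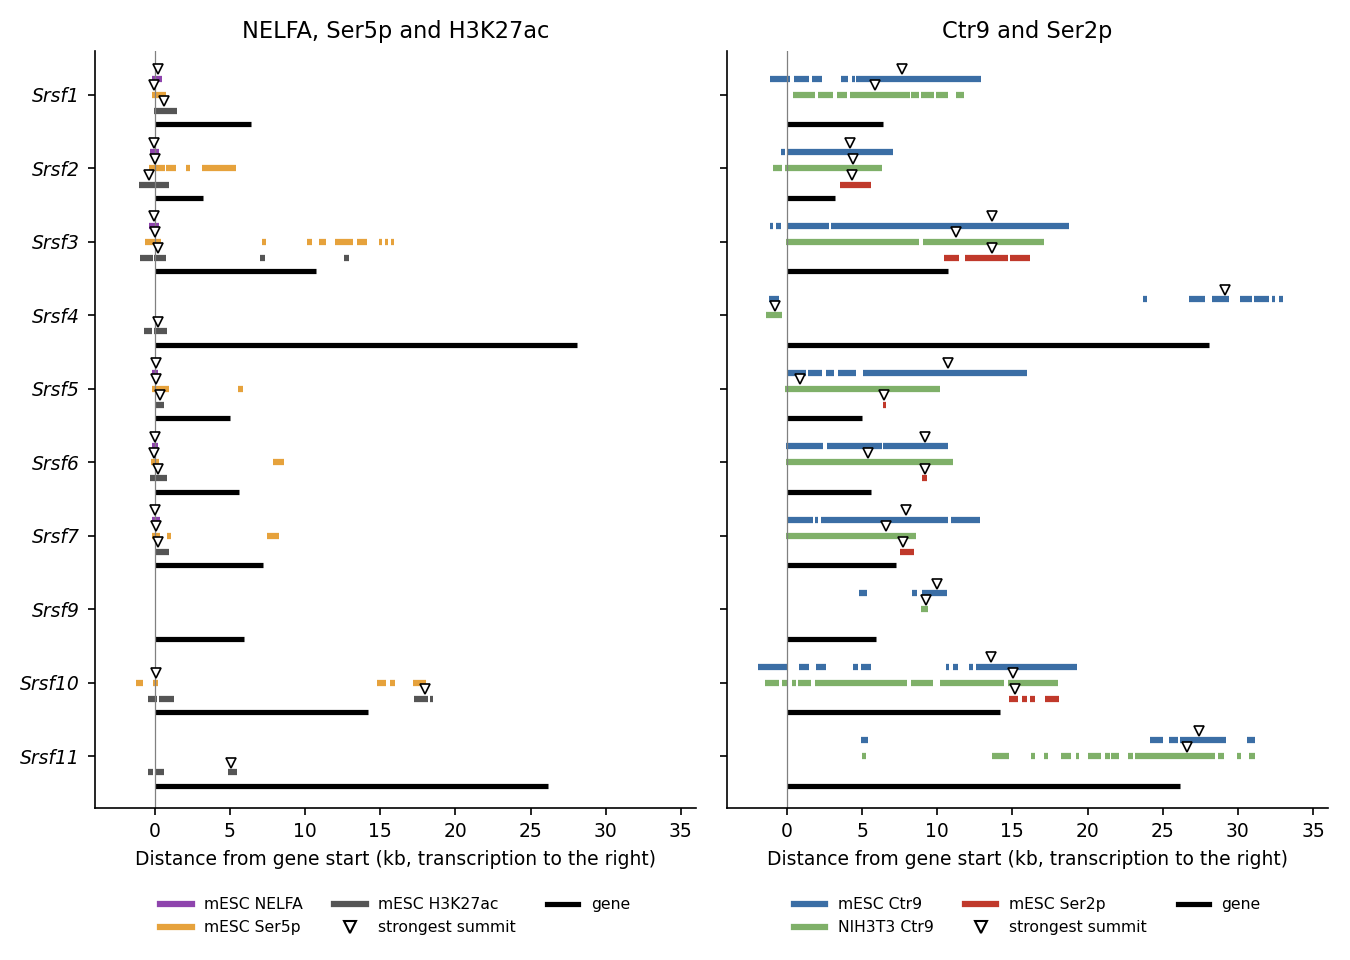
Peaks in each SR gene region as distance from the gene start in kb, with NELFA, RNAPII Ser5p and H3K27ac of mESCs on the left and Ctr9 of both cell types and RNAPII Ser2p of mESCs on the right. Coloured bars are peaks drawn at full width, triangles mark the strongest summit of each list, and black bars are the genes. Strongest NELFA and Ser5p summits stand at the start, and Ctr9 bars run through most of the short genes, though not *Srsf9*.

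RNAPII Ser2p, the form of polymerase found in late elongation, was called at 6 of 10 SR genes in mESCs, namely *Srsf2*, *Srsf3*, *Srsf5*, *Srsf6*, *Srsf7* and *Srsf10*. This compares with 6.99% of all genes and 21.3% of the top 25%. The strongest Ser2p summit lay within 1 kb of the TSS in 0 of the 6, against 11.3% of the top 25% with a peak, and past the gene end in 6 of 6, against 71.5%. Its distance from the strongest Ctr9 summit of mESCs varied widely, at 17 bp in *Srsf6*, 29 bp in *Srsf3*, 144 bp in *Srsf2*, 173 bp in *Srsf7*, 1594 bp in *Srsf10* and 4244 bp in *Srsf5*. Within the gene body alone, a Ser2p peak was left at 1 of the 6 genes, and all 4 Ser2p summits of *Srsf10* lay within *Pnrc2*. Enrichment was highest at *Srsf2* (9.10), whose summit lay within *Mettl23*, and lowest at *Srsf5* (4.0), and the median of 5.38 was close to that of the top 25%, 5.46.

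NELFA was called at 6 of 10 SR genes in mESCs (*Srsf1*, *Srsf2*, *Srsf3*, *Srsf5*, *Srsf6* and *Srsf7*), against 10.4% of all genes and 29.4% of the top 25%, which was not matched in level. The 6 summits all lay within 1 kb of the TSS, against 82% of the top 25% with a peak. They were at -27 bp (*Srsf3*), -22 bp (*Srsf2*), 41 bp (*Srsf7*), 48 bp (*Srsf6*), 52 bp (*Srsf5*) and 228 bp (*Srsf1*) from the TSS. The NELFA, Ser5p and H3K27ac summits at the start of *Srsf2* also lie within *Mettl23* and *Mfsd11*. NELFA enrichment was highest at *Srsf7* (12.6) and *Srsf2* (12.1) and lowest at *Srsf1* (5.79), with a median of 9.83 against 5.1.

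RNAPII Ser5p, the form found at promoters and in early elongation, was called at the same 6 genes and at *Srsf10*, which makes 7 of 10 against 12.8% of all genes and 36.3% of the top 25%. The strongest Ser5p summit was within 1 kb of the TSS in 7 of 7, against 58.2%. It lay between -72 bp (*Srsf1*) and 78 bp (*Srsf10*) from the TSS, and the median enrichment was 10.1 against 5.34. Ser5p peaks were not confined to the start, since *Srsf3* had 9 of them and *Srsf10* 5. The 6 genes with NELFA were also the 6 with the highest leading transcript among the 10 in mESCs.

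H3K27ac was called at 9 of 10 SR genes in mESCs, against 43.1% of all genes and 89.7% of the top 25%, and at 10 of 10 in NIH3T3 cells, against 54.7% and 97.5%. The strongest summit was within 1 kb of the TSS in 7 of 9 in mESCs, against 80.2%, and in 9 of 10 in NIH3T3 cells, against 81.3%. The exceptions were *Srsf10* in both cell types, with summits within the neighbour *Pnrc2*, and *Srsf11* in mESCs, with a summit 5080 bp after the annotated gene start. These counts depend on the start used. Measured from the start of the transcript of highest TPM, the strongest summit was within 1 kb in 8 genes in mESCs and 8 in NIH3T3 cells. Median enrichment was 7.80 in mESCs against 6.01, and 36.7 in NIH3T3 cells against 19.3.

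*Srsf9* was the only SR gene without an H3K27ac peak in mESCs, and its strongest Ctr9 enrichment was the lowest of the 10 in both cell types, at 4.42 in mESCs and 4.13 in NIH3T3 cells. It also had no NELFA, Ser5p or Ser2p peak in mESCs, like *Srsf4* and *Srsf11*. Like *Srsf11*, it had no Ctr9 summit of mESCs within 1 kb of its annotated gene start, though *Srsf11* had one 5053 bp after that start. In NIH3T3 cells, where its level was higher, it had 3 H3K27ac peaks, all with summits within 1 kb of the TSS, of which the strongest was at 8.01. That was still the lowest H3K27ac value among the 10 genes in NIH3T3 cells, where the next, *Srsf3*, was at 17.4.

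The promoters of *Srsf2*, *Srsf3* and *Srsf9* are shown because the first pair carried NELFA summits just before the TSS and the last carried no NELFA, Ser5p or H3K27ac peak in mESCs. They come from RefSeq on GRCm38.p6, run from 250 bases before the RefSeq start to the first 30 bases of the transcript, and read 5′ to 3′ on the strand of the gene. Capitals mark the 21 bases centred on the strongest NELFA summit. The RefSeq start of *Srsf3* lies 32 bases after the GENCODE start used for distances, and those of *Srsf2* and *Srsf9* are the same.
Srsf2 promoter, chr11:116853065-116853344, minus strand: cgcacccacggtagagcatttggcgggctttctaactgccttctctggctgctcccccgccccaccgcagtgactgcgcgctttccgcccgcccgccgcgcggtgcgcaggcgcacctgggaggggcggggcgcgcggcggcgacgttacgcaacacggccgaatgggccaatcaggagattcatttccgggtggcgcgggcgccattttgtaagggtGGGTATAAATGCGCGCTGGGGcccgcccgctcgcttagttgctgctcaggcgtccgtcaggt
Srsf3 promoter, chr17:29032410-29032689, plus strand: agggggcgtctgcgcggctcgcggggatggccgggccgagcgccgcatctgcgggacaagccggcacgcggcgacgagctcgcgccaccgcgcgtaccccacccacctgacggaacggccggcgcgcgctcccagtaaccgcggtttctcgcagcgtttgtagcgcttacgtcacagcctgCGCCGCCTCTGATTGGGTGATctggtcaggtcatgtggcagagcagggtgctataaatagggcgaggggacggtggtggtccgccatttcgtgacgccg
Srsf9 promoter, chr5:115326927-115327206, plus strand: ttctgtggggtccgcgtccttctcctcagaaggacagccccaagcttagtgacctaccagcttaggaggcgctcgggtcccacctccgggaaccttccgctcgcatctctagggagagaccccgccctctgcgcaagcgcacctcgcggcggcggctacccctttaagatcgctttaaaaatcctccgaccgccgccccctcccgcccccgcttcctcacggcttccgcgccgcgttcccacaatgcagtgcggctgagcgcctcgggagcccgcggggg

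All 10 members matched a RefSeq promoter window of 250 bases before to 50 after the start. The letters TATAAA, searched on both strands, occurred in 2 of 10, *Srsf2* and *Srsf3*, and in 13.6% of 32851 promoters of the same length. In *Srsf2* they lie under the NELFA summit, within the capitals above. The letters CCAAT occurred in 4 of 10 and in 37.4% of all promoters, and GGGCGG in 9 of 10 and in 35.7%. The number of CG dinucleotides was 20 to 49 in the members, with a median of 35, against a median of 7 over all promoters. At least 20 were found in 26.5% of all promoters. Those promoters were not limited to expressed genes, whereas the SR genes were all in the top 25% of TPM. The RefSeq start of *Srsf10* lies 324 bases after the GENCODE start, so its window does not hold the point from which its distances were counted.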

How the data were processed

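RNA-seq and ChIP-seq values of mESCs and NIH3T3 cells were taken as deposited. The authors extracted total RNA, carried out what the study calls mRNA sequencing, and quantified it against the GENCODE M19 transcripts (kallisto 0.46.1). For each transcript the authors deposited an estimated count and a TPM. The estimated counts are kallisto's division of reads among transcripts and need not be whole. ChIP-seq reads were aligned by the authors to mm10 with bowtie2 2.3.5.1, cleared of ENCODE blacklisted regions, and turned into peaks by macs2 2.2.6 with a limit of 0.01 on the q-value. In the deposited peak lists, the fold enrichment is a ratio to the local background, the −log10 p and −log10 q belong to the summit, and the score column is the authors' display score, which was not used. Fold enrichments of different antibodies or cell types were not compared as amounts.

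From these files, gene levels were the TPM of the highest transcript, as in the study's methods, and ratios were taken on log2(TPM + 1) for genes with at least 1 TPM in either library. The share in NMD and retained-intron transcripts used the summed TPM of the gene. Gene coordinates came from GENCODE M21 on GRCm38, the assembly of mm10, and sequences from the GRCm38.p6 reference and its RefSeq promoter table. Estimated counts were rounded for the 95% exact intervals (Clopper-Pearson for shares, conditional binomial for ratios). The background for peaks was the top 25% of protein-coding genes not at 0 TPM, without matching to the SR genes in level. Members of lists other than the SR genes were named when they ranked among the 3 largest ratios past 2-fold, and *Pou5f1* and *Col1a1* as markers. *Upf1* was named because it lay just short of 2-fold. SR transcripts were named at 5 TPM or 10% of the gene's summed TPM in either library.

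The SR genes, the other lists and the alternatives were chosen with earlier results of these data known. Some of the other settings, among them the sum over coding transcripts and leaving out transcripts under 600 bases, were added after the values were seen. The code for overlaps, coverage and shares of counts was checked on simulated data, and that for positions and the ratio interval on fixed examples. Of these checks, 5 of 5 passed. The interval for shares was not checked. Python 3.11.15, pandas 2.3.3, NumPy 2.4.6, SciPy 1.17.1 and Matplotlib 3.10.9 were used.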

Additional observations from a re-analysis of the deposited data

How the results depend on the processing

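No library had a replicate, so no replicate could be left out and no paired analysis was possible because each cell type has 1 library. Of 98 alternative values for the counts and medians, 68 stayed within the limits set for a change, 30 moved and 0 reversed. Of 98 for single genes, 51 stayed and 47 moved. A reversal was counted only for called values, and no single gene was called in the main setting, so none could occur. Changes of sign are therefore among the values that moved or stayed. Dividing TPM by the median ratio put 1 gene (*Srsf9*) past 2-fold, and a 1.5-fold limit also gave 1. The median log2 ratio of 0.13 became 0.13 by the sum over transcripts, 0.25 on estimated counts scaled to the library total, 0.048 after division by the median ratio and 0.33 over coding transcripts, and *Srsf1*, *Srsf2*, *Srsf3* and *Srsf10* changed sign between settings. The number of genes whose NMD and retained-intron share differed by 10 points became 1 on estimated counts, 1 with coding, NMD and retained-intron transcripts as the whole, 1 without transcripts under 600 bases, 2 with every non-coding biotype counted, and 1 at a limit of 5 points. The median share in mESCs and NIH3T3 cells became 8.51% and 12.8% on counts, 3.74% and 2.72% for NMD alone, 3.93% and 6.35% for retained introns alone, 17.0% and 18.7% with the reduced whole, 26.6% and 33.0% with every non-coding biotype, and 18.4% and 23.8% over the 8 annotated genes. The NMD-only median was thus the one that stood lower in NIH3T3 cells, but it includes the genes at 0 by construction. Over the 8 annotated genes the NMD-only median was 7.43% in mESCs and 8.97% in NIH3T3 cells. With any peak in place of the strongest, 8 genes had a Ctr9 summit within 1 kb of the TSS in mESCs and 4 in NIH3T3 cells, and within 500 bp of the TSS 0 had the strongest one in NIH3T3 cells. Within the gene body alone, a Ser2p peak was left at 1 gene, and median Ctr9 coverage, 80.1% in mESCs and 76.3% in NIH3T3 cells, became 74.9% and 94.0%. At a −log10 q of at least 5 it became 77.1% in mESCs. The causes of these changes were not tested beyond what each setting leaves out. The depth of the ChIP-seq libraries is unknown, so a gene without a peak is one where none was called.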
